A study of Homo sapiens with 3 samples.

Results

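Sterol and fatty acid synthesis was followed in C28/I2 cells grown as spheroids and set against the same line grown as a monolayer. The 32 genes are a list of symbols, and its rule uses no measured value, although the list was drawn up with earlier results of these data known: 18 enzymes of cholesterol synthesis, 9 enzymes of fatty acid synthesis, elongation and desaturation, and 5 genes that regulate the pathway or carry sterols. All 32 were found among the 19215 genes of the deposited table, and all 32 had a fold change. C28/I2 cells derive from human chondrocytes that were immortalised with the large T antigen of a virus, so they keep dividing in culture. The 3 spheroid samples, from cells kept in medium with fetal bovine serum, had 0.5% DMSO, a solvent used as vehicle, for 48 h. Monolayer cultures of C28/I2 enter only through the comparison the authors deposited, and the sources used here do not give their treatment. Labels do not say whether the 3 spheroid samples were separate cultures, so SDs measure the spread between these samples, which may be technical. The p-values are from the authors' comparison of spheroid with monolayer, judged against a spread between libraries that may also be technical.

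SREBPs are transcription factors that are made as membrane proteins of the endoplasmic reticulum. SCAP escorts them to the Golgi for cleavage when sterols are low, and INSIG proteins hold the complex back when sterols are plentiful. The SREBP encoded by SREBF2 acts mainly on cholesterol synthesis genes, and a form encoded by SREBF1 acts mainly on fatty acid genes. Serum lipoproteins are a source of cholesterol for cultured cells, and growing cells need sterols and fatty acids for new membranes. In cartilage, inherited loss of sterol enzymes such as EBP or NSDHL disturbs skeletal growth.

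Levels are FPKM, fragments per kilobase of transcript scaled to the mapped total of the library, which can be compared between genes because they are per length. Summed FPKM over all genes was 571705, 581522 and 623496 in spheroid replicates 1, 2 and 3, and read depth is unknown. Of the defining chondrocyte markers, COL2A1 was listed at 0.03, 0.01 and 0.01 FPKM and 8 of 10 markers were below 1 FPKM, while SOX9 had 6.71 ± 0.0866 FPKM (SD, n = 3). Adipocytes make and store lipid, and 6 of the 7 adipocyte markers in the table were below 2 FPKM in spheroids. ADIPOQ was at 0, 0 and 0.02 FPKM, and the exception, PPARG, had 7.68 ± 0.204 FPKM (SD, n = 3). Summed adipocyte marker levels were 10.34, 11.96 and 11.09 FPKM, and summed chondrocyte marker levels 9.76, 10.7 and 10.5 FPKM. By the authors' deposited table, 2 of 10 chondrocyte markers were lower in spheroids and 1 was higher, and 1 of the 7 adipocyte markers was lower and 0 were higher. Over all genes tested 9.34% were lower and 11.5% higher, so with lists this short the counts are not a result about cell type. The called markers ACAN, HAPLN1, COL9A1 and FABP4 had only 0.73, 0.07, 0.13 and 0.59 FPKM in spheroids. Spheroid replicate 1 was the highest library for 23 of the 32 genes, against 38% of the 12410 genes at 1 FPKM or more. Summed over the 32 genes, levels were 623, 555 and 524 FPKM in replicates 1, 2 and 3, so replicates 2 and 3 also differed.

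In spheroids, 21 of the 32 genes were lower than in monolayer, 0 were higher and 11 did not pass the test. A gene was called at an adjusted p under 0.05 in the authors' DESeq2 comparison and a log2 fold change of 1 or more in size. By the same rule 9.34% of the 18467 genes tested were lower in spheroids and 11.5% were higher. No member above 0 had even an unadjusted p under 0.05 in that DESeq2 comparison. By the adjusted p alone, 27 of the 32 were lower, against 24.5% of all genes tested. The median log2 fold change of the 32 in the authors' deposited table was -1.31, against 0.04 over all genes tested. Of the sterol enzymes 14 of 18 were lower, and of the fatty acid enzymes 6 of 9; the difference between these counts was not tested, because members are not replicates. All 32 had a spheroid level above 1 FPKM, so no low-level filter removed a member. In bulk samples such as these, fewer cells of a type and less RNA per cell cannot be told apart.

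**Figure D1:**
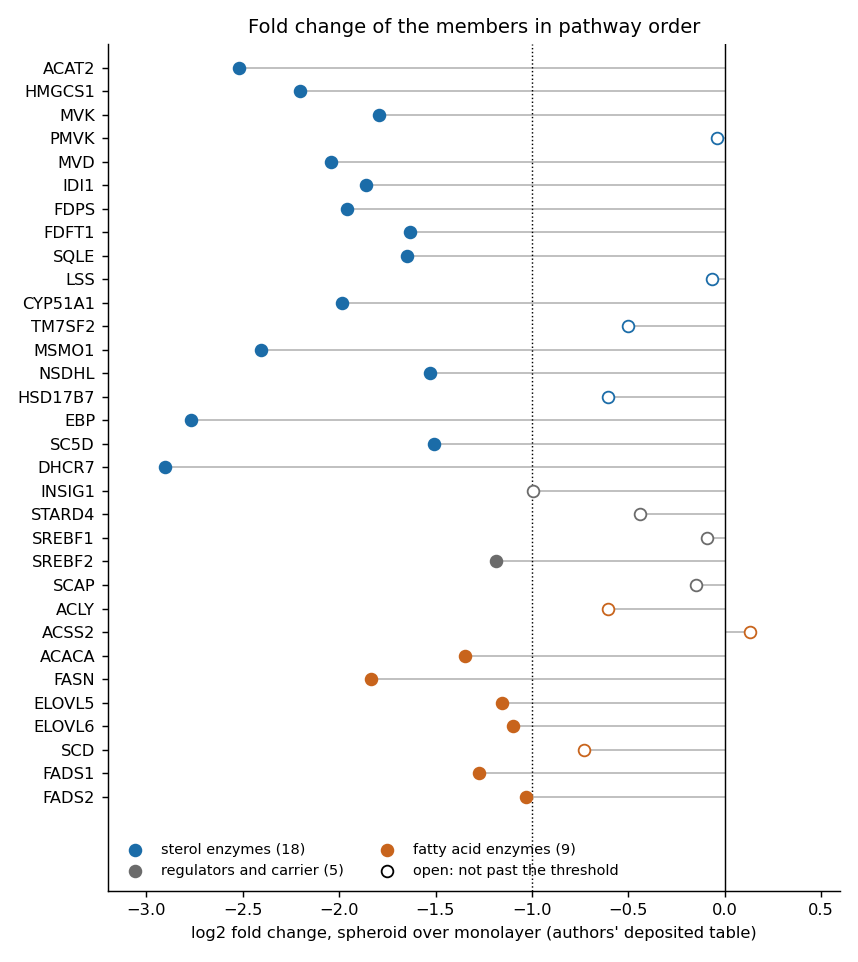
Authors' log2 fold change of each gene, spheroid over monolayer, in pathway order, with sterol enzymes in blue, regulators in grey and fatty acid enzymes in orange. Filled points passed the adjusted p and the fold minimum (dotted line at -1): DHCR7 lies lowest at -2.90, and PMVK and LSS lie near 0 among sterol enzymes that fell.

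The early sterol enzymes make farnesyl diphosphate from acetyl-CoA, and 6 of the 7 fell in spheroids. ACAT2, the cytosolic thiolase that joins acetyl-CoA units, had 14.1, 7.98 and 9.71 FPKM in the spheroid libraries. Replicate 1 was clearly the highest for ACAT2, and its mean of 10.6 ± 3.13 FPKM (SD, n = 3) becomes 8.85 FPKM without replicate 1. ACAT2 was 5.74 times lower in spheroids, with a log2 fold change of -2.52 and an adjusted p of 1.54e-55 in the authors' deposited table. HMGCS1, which condenses acetyl-CoA with acetoacetyl-CoA, had 6.90, 5.42 and 4.68 FPKM in spheroids. The HMGCS1 level was 4.61 times lower in spheroids, with a log2 fold change of -2.20 and an adjusted p of 3.19e-64 in the authors' deposited table.

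MVK and PMVK add successive phosphates to mevalonate, and only MVK passed the test. MVK had 7.70, 6.53 and 7.83 FPKM in spheroids and a log2 fold change of -1.79 with an adjusted p of 3.44e-41 in the authors' deposited table. PMVK had 16.2, 15.7 and 21.2 FPKM in spheroids, with a log2 fold change of -0.04 and an adjusted p of 0.897 in that deposited table. The later steps through MVD, which makes the isoprene unit, IDI1, which isomerises it, and FDPS, which joins the units, were 4.12, 3.63 and 3.88 times lower in spheroids by the authors' deposited table. FDPS was the most abundant of the early enzymes at 33.5 ± 3.77 FPKM (SD, n = 3), with MVD at 8.45 ± 0.627 and IDI1 at 9.74 ± 0.656 FPKM.

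From farnesyl diphosphate to lanosterol, 2 of 3 enzymes fell. FDFT1, squalene synthase, had 35.2, 27.7 and 26.5 FPKM in spheroids and was 3.10 times lower (adjusted p 3.46e-49 in the authors' deposited table). SQLE, the epoxidase that is a rate-limiting step of the pathway, had 10.5, 9.43 and 8.38 FPKM and was 3.13 times lower in spheroids (adjusted p 8.92e-38 in the authors' deposited table). LSS, which closes squalene epoxide into lanosterol, had 47.7, 45.5 and 43.1 FPKM in spheroids. LSS had a log2 fold change of -0.06 with an adjusted p of 0.606 in the authors' deposited table. LSS had 4.82 times the spheroid level of SQLE and made up 17.7% of the summed sterol enzyme level.

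Between lanosterol and cholesterol, 6 of 8 enzymes fell, and the lowest fold changes of the 32 were found here. DHCR7, the reductase of the final step of one route, had 14.8, 10.1 and 8.68 FPKM in spheroids. DHCR7 was 7.49 times lower in spheroids, a log2 fold change of -2.90 with an adjusted p of 2.14e-90 in the authors' deposited table, and its mean of 11.2 ± 3.20 FPKM (SD, n = 3) becomes 9.37 FPKM without replicate 1. EBP, the isomerase that moves the ring double bond, had 14.02, 11.10 and 11.05 FPKM and was 6.82 times lower in spheroids (adjusted p 1.51e-91 in the authors' deposited table). MSMO1, which oxidises a ring methyl group, had 14.4, 10.5 and 8.78 FPKM and was 5.30 times lower in spheroids (adjusted p 8.74e-66 in the authors' deposited table). Counted from the lowest of the 18467 fold changes, DHCR7, EBP, ACAT2, MSMO1 and HMGCS1 held ranks 312, 342, 470, 542 and 625.

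CYP51A1, which demethylates lanosterol, had 9.42 ± 2.33 FPKM in spheroids (SD, n = 3). NSDHL, a dehydrogenase that helps remove ring methyl groups, had 18.6 ± 0.792 FPKM, and SC5D, a ring desaturase, 4.80 ± 0.474 FPKM. The spread of CYP51A1 came with a value of 11.9 FPKM in replicate 1, against 9.16 and 7.23 FPKM in replicates 2 and 3. In the authors' deposited table the log2 values of CYP51A1, NSDHL and SC5D were -1.99, -1.53 and -1.51, all past the test. TM7SF2, a sterol reductase, had 4.15, 5.31 and 5.45 FPKM, and HSD17B7, a ketosteroid reductase, had 6.73, 7.53 and 7.99 FPKM. Replicate 1 was the lowest library for both of these genes. In the authors' deposited table their log2 values were -0.50 and -0.61, with adjusted p of 0.0184 and 0.00117, and both missed the fold minimum.

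Fold changes of the sterol enzymes left a gap, described here with bounds chosen after the values had been seen. The authors' deposited table had 14 sterol enzymes below -1.5 on the log2 scale and 0 between -1.5 and -0.7. The remaining enzymes, PMVK, LSS, TM7SF2 and HSD17B7, are those named above. Of all genes tested, 7.32% lay at or below -1.5 and 20.7% at or below -0.7. The gap is a description and was not tested.

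**Figure D2:**
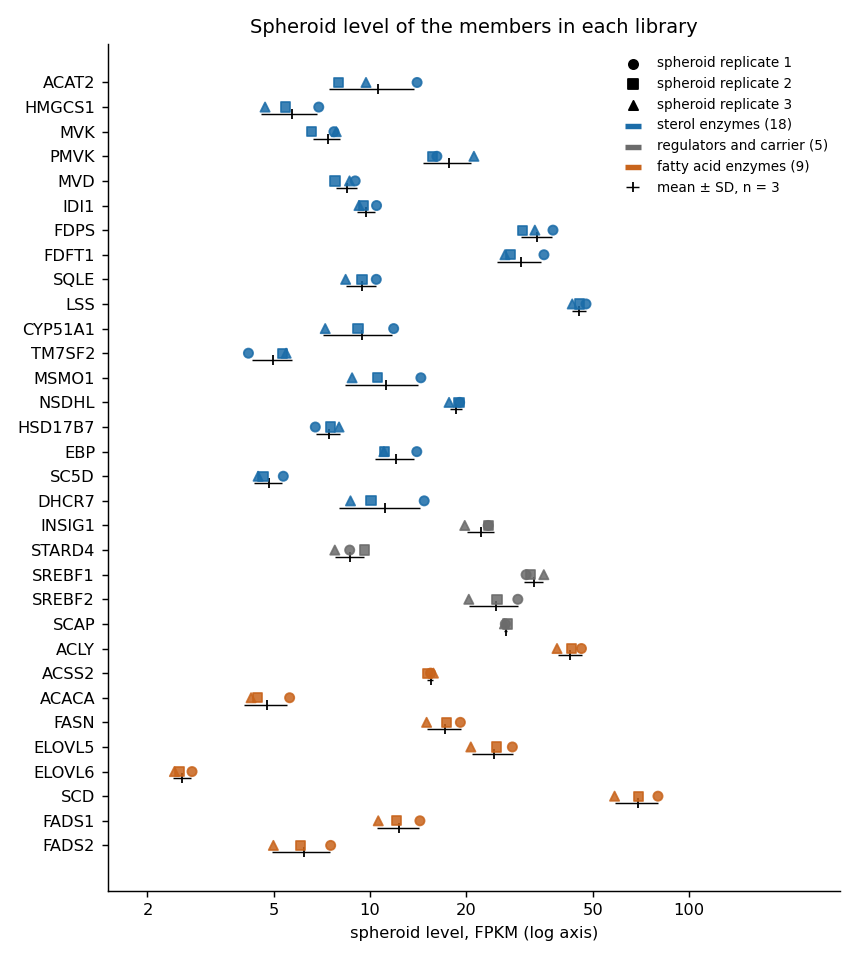
Spheroid level in FPKM (log axis) of each gene in the 3 libraries, with the mean and SD under the points. SCD is the most abundant at 69.5 ± 10.8 FPKM and ELOVL6 the least at 2.57 ± 0.171 FPKM, and for most enzymes the circle of replicate 1 lies to the right.

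Of the 5 regulators and carriers, only SREBF2 passed the test. SREBF2 had 29.1, 25.0 and 20.4 FPKM in spheroids, highest in replicate 1, and was 2.27 times lower in spheroids than in monolayer (log2 fold change -1.18, adjusted p 3.41e-23 in the authors' deposited table). SREBF1 had 30.9, 31.8 and 35.1 FPKM, above SREBF2 in each library, with a log2 fold change of -0.09 and an adjusted p of 0.490 in the authors' deposited table. SCAP had 26.6, 27.0 and 26.4 FPKM, the smallest spread relative to its level of the 32, and a log2 fold change of -0.15 with an adjusted p of 0.208 in the authors' deposited table. INSIG1, itself a target gene of SREBPs, had 23.5, 23.6 and 19.8 FPKM. INSIG1 lay just outside the fold minimum at -0.996 (adjusted p 1.74e-20 in the authors' deposited table), and FADS2 just inside it at -1.03. STARD4, a cytosolic sterol carrier, had 8.65 ± 0.915 FPKM (SD, n = 3) and a log2 fold change of -0.44 (adjusted p 4.93e-04 in the authors' deposited table), short of the fold minimum. Measured transcripts say nothing of how much SREBP protein was cleaved.

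Fatty acid synthesis starts from cytosolic acetyl-CoA, and neither supply enzyme passed the test. ACLY, which splits citrate, had 46.1, 43.0 and 38.6 FPKM and a log2 fold change of -0.61 (adjusted p 2.36e-10 in the authors' deposited table), short of the fold minimum. ACSS2, which activates acetate, had 15.5, 15.1 and 15.8 FPKM and was the single member above 0, at 0.13 (adjusted p 0.326 in the authors' deposited table). Both enzymes of chain synthesis fell. FASN, fatty acid synthase, had 19.2, 17.3 and 15.1 FPKM and was 3.56 times lower in spheroids (adjusted p 8.84e-72 in the authors' deposited table). ACACA, the carboxylase that makes malonyl-CoA, had 5.59, 4.44 and 4.23 FPKM and was 2.54 times lower in spheroids (adjusted p 4.28e-31 in the authors' deposited table). FASN was the one fatty acid enzyme below -1.5 on the log2 scale.

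Both elongases and 2 of the 3 desaturases fell. ELOVL5, an elongase of polyunsaturated chains, had 27.98, 24.97 and 20.72 FPKM in spheroids and was 2.23 times lower (adjusted p 9.40e-17 in the authors' deposited table). ELOVL6, an elongase of saturated chains, had 2.76, 2.52 and 2.43 FPKM and was 2.14 times lower in spheroids (adjusted p 7.52e-17 in the authors' deposited table). SCD, the desaturase that makes monounsaturated fatty acids, had 80.2, 69.6 and 58.6 FPKM and made up 35.6% of the summed fatty acid enzyme level. Its log2 fold change of -0.73 (adjusted p 4.74e-11 in the authors' deposited table) was short of the fold minimum. FADS1 and FADS2, desaturases of polyunsaturated chains, had 12.4 ± 1.88 and 6.18 ± 1.28 FPKM in spheroids (SD, n = 3) and were 2.41 and 2.05 times lower by the authors' deposited table. FADS1 and FADS2 overlap on opposite strands and the sources used here do not give strandedness, so reads in the overlap cannot be told apart.

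In the authors' deposited table, the sterol enzymes had a median log2 fold change of -1.83 and the fatty acid enzymes one of -1.10, a difference of -0.73. Their fold changes ran from -2.90 to -0.04 for sterol enzymes and from -1.83 to 0.13 for fatty acid enzymes. A log2 fold change of -2 or less was found for 6 sterol enzymes and for 0 fatty acid enzymes. Over all genes tested 4.49% lay there, so a 0 in so short a list is not a result about the fatty acid enzymes. Within spheroids, the summed level of the sterol enzymes was 286, 243 and 244 FPKM, and that of the fatty acid enzymes 219, 195 and 171 FPKM. The sterol sum over the fatty acid sum was 1.30, 1.24 and 1.42, with a mean of 1.32 ± 0.0916 (SD, n = 3). This order depends on the summary, since a ratio of geometric means per gene was 0.83, below 1. The median level per gene was 10.2 FPKM for sterol enzymes and 15.5 FPKM for fatty acid enzymes.

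**Figure D3:**
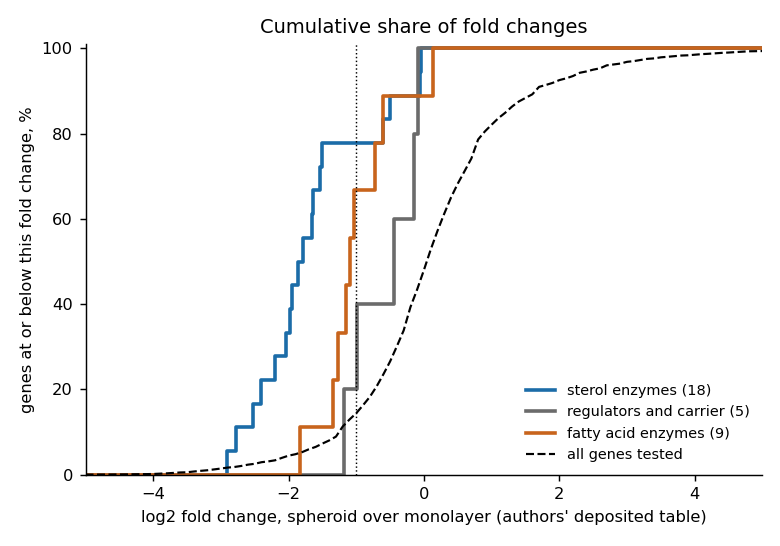
Share of genes at or below each log2 fold change, spheroid over monolayer, for sterol enzymes (blue), fatty acid enzymes (orange), regulators (grey) and all 18467 genes tested (dashed). The sterol line climbs first, with a median of -1.83, the fatty acid line next, at -1.10, and the dashed line has its median at 0.04.

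The spread among the spheroid libraries was wider for the enzymes than for most genes: the median coefficient of variation was 12.7% for sterol enzymes, 14.9% for fatty acid enzymes and 9.56% for regulators, against 8.37% over all genes at 1 FPKM or more. Deviations were taken as log2(FPKM + 1) minus the mean of the 3 libraries. For the sterol enzymes the median deviation was 0.14, -0.05 and -0.08 in replicates 1, 2 and 3, and for the fatty acid enzymes 0.19, -0.01 and -0.17. Among sterol enzymes that fell, replicate 1 was highest for 13 of 14, and among those that did not pass the test for 1 of 4. The corresponding counts for fatty acid enzymes were 6 of 6 and 2 of 3. The share over all genes at 1 FPKM or more was 38%, and counts in groups of 4 and 3 are a description only. All 16 genes of a mitosis list, written with earlier results of these data known, were lower in spheroids, against 9.34% of all genes tested. Their median was -3.64 on the log2 scale by the authors' deposited table, and their summed level was 95.0, 67.6 and 66.1 FPKM. Replicate 1 was highest for 15 of the 15 mitosis genes at 1 FPKM or more, against 38% of all genes at that level. The part of replicate 1 or of mitosis genes in the fold changes was not tested. Without replicate 1 the summed level was 243 FPKM for sterol enzymes and 183 FPKM for fatty acid enzymes. The authors' fold changes were not recomputed without replicate 1.

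**Figure D4:**
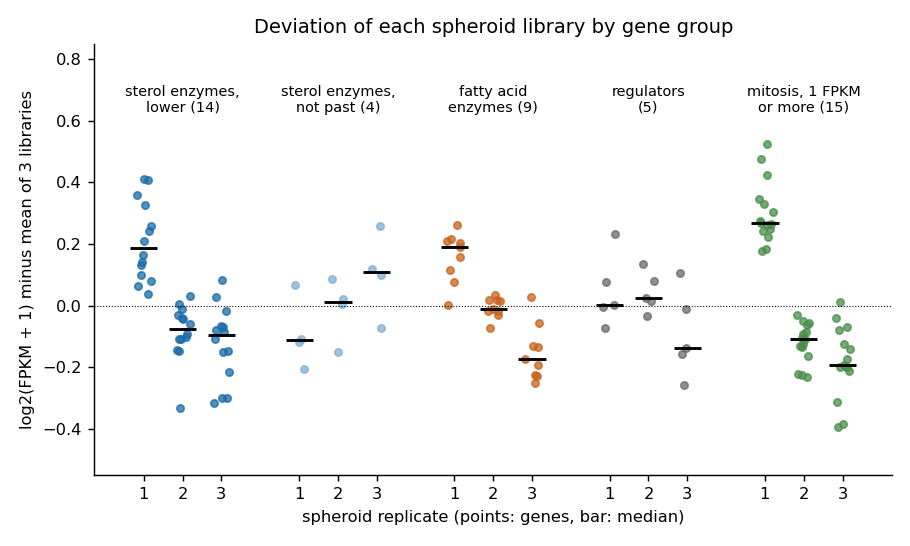
Deviation of each gene in each spheroid library, as log2(FPKM + 1) minus the mean of the 3 libraries, by gene group (bars are medians). Replicate 1 is highest for the sterol enzymes that fell, with a median of 0.19, and for the mitosis genes, with 0.27, while the 4 sterol enzymes that did not pass have a median of -0.11 there.

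Genes with lower fold changes also had higher values in replicate 1. Across the 18 sterol enzymes, Pearson's r between the authors' deposited log2 fold change and the deviation of replicate 1 was -0.81 and Spearman's rho was -0.81. Across the 32 members these were -0.73 and -0.70, and across the 12410 genes at 1 FPKM or more -0.31 and -0.24. These values are across genes, which are not independent replicates, and both measures use the same spheroid libraries. This relation was examined after the values had been seen.

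**Figure D5:**
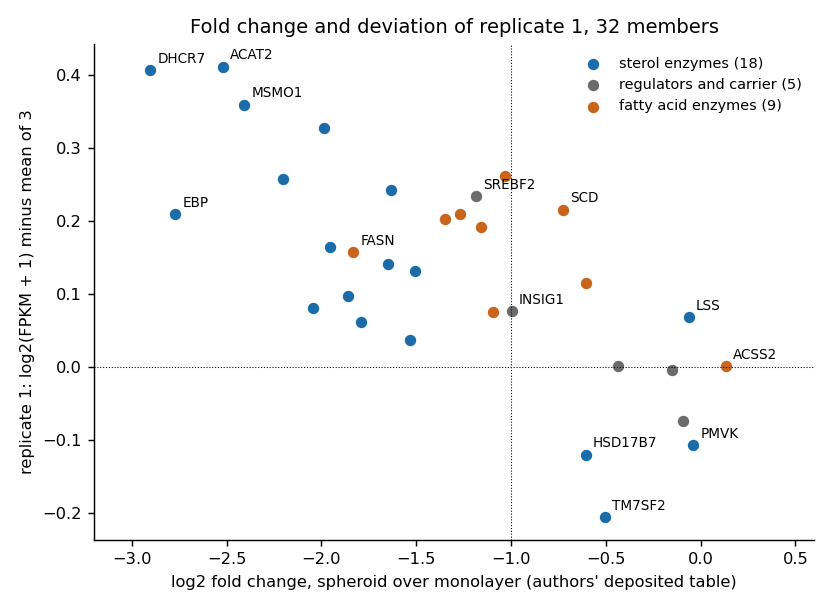
Deviation of replicate 1 (vertical, log2 scale) against the authors' log2 fold change, spheroid over monolayer (horizontal), for each of the 32 genes. DHCR7, ACAT2 and MSMO1 sit at the upper left, and PMVK, TM7SF2 and HSD17B7 at the lower right.

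Promoter sequence was examined because SREBPs act together with NF-Y and Sp1 at many of these genes. RefSeq windows from 250 bases before to 50 bases after the start site (GRCh38.p14) were found for 28 of the 32 genes; ACAT2, FDFT1, SQLE and FASN are named only. The sterol regulatory element core TCACNCCAC was found in 1 of the 28, SREBF2, with both strands and every listed window of a gene searched for each motif, against 1.39% of the 27305 genes of that table. The NF-Y box CCAAT was found in 22 of 28 (78.6%), against 39.7% of all genes, and in 13 of the 15 sterol enzymes with a window. Among sterol enzymes it was found in 10 of 11 that fell, CYP51A1 being the exception, and in 3 of 4 that did not pass, PMVK being the exception. The Sp1 box GGGCGG was found in 26 of 28 (92.9%), against 48.3%, and the E-box CACGTG in 5 of 28 (17.9%), against 8.77%. The genes compared against were not matched to the members for expression level, base composition or number of windows. A match is a description and not a binding site, and a missing match says only that the letters are not in the window.

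The 200 bases before the start site are shown for SREBF2, which holds the element core, for 4 sterol enzymes that fell, and for PMVK, which has no CCAAT box and did not pass. They were chosen after the values had been seen, and for each gene the listed window with the most CCAAT boxes in these bases is shown. LSS, TM7SF2 and HSD17B7 also did not pass but hold a CCAAT box, while CYP51A1 fell and holds none. Whether the box goes with the fall was not tested. HMGCS1 and DHCR7 each have another listed start site, whose window holds no CCAAT box and is not shown. Capitals mark CCAAT or its reverse complement ATTGG, and in SREBF2 also the element core; all are written 5′ to 3′ on the gene's strand. The windows are SREBF2 chr22:41832905-41833104 (plus strand), HMGCS1 chr5:43313413-43313612 (minus), MVK chr12:109573594-109573793 (plus), EBP chrX:48521608-48521807 (plus), DHCR7 chr11:71448394-71448593 (minus) and PMVK chr1:154936720-154936919 (minus). In SREBF2 the element core starts 133 bases and the CCAAT box 106 bases before the start site. Within the printed bases, boxes start 155 and 100 bases before it in HMGCS1, 157, 94, 79 and 46 in MVK, 191, 70 and 30 in EBP, and 94 and 48 in DHCR7.
SREBF2: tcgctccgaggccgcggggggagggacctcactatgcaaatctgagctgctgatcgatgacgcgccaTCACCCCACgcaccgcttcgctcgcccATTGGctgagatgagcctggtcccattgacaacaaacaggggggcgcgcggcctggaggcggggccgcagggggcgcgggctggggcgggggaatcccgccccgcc
HMGCS1: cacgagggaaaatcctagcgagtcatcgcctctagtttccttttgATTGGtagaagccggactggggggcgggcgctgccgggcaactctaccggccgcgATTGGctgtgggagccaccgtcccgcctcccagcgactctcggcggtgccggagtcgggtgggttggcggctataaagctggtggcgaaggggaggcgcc
MVK: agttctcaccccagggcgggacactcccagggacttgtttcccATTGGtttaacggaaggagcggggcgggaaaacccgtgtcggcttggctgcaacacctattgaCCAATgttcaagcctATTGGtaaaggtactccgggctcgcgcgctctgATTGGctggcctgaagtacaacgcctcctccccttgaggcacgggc
EBP: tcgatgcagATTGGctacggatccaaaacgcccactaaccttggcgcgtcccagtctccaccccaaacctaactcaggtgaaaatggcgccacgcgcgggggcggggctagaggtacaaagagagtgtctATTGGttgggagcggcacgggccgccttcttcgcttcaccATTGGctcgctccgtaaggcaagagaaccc
DHCR7: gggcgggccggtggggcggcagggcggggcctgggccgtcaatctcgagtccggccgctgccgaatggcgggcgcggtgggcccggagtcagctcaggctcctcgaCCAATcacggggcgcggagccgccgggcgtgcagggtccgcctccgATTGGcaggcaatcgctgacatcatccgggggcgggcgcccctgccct
PMVK: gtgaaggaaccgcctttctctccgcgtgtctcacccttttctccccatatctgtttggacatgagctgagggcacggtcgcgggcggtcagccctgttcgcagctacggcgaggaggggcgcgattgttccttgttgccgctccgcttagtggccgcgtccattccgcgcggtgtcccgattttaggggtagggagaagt

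Among 34 other genes of these pathways, a list written with earlier results of these data known, 4 were lower in spheroids, 6 were higher and 24 did not pass. The shares over all genes tested were 9.34% lower and 11.5% higher. With a list this short, these counts are not read as a result about the list. By the adjusted p alone, 14 were lower and 11 were higher, against 24.5% and 26% of all genes tested. The genes past the threshold are given one by one as a description. Over the 34 genes the median log2 fold change was -0.31 and the mean 0.01, with opposite signs, in the authors' deposited table. TMEM97, a sterol-responsive membrane protein, had 3.48, 2.50 and 2.05 FPKM in spheroids and was 13.02 times lower (adjusted p 2.55e-134 in the authors' deposited table). HACD1 and HACD2, dehydratases of chain elongation, were also lower in spheroids, with log2 values of -1.76 and -1.19 in the authors' deposited table.

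INSIG2, the relative of INSIG1, was higher in spheroids: it had 18.2, 23.2 and 25.5 FPKM and a log2 fold change of 1.84 (adjusted p 1.20e-38 in the authors' deposited table). For INSIG2 replicate 1 was the lowest library. ACSL1 and ACSL4, which activate long-chain fatty acids, had 36.9 ± 2.25 and 54.5 ± 3.56 FPKM (SD, n = 3) and were 3.65 and 2.21 times higher in spheroids by the authors' deposited table. ELOVL7, an elongase, with 4.59, 5.64 and 5.08 FPKM, was 4.87 times higher in spheroids (adjusted p 7.95e-29 in the authors' deposited table). FAXDC2 and ELOVL3 were also higher, with log2 values of 2.89 and 4.50 in the authors' deposited table, at low spheroid levels of 2.79 ± 0.288 and 1.57 ± 0.276 FPKM (SD, n = 3).

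Gene copies and overlaps limit some values. 5 members have named pseudogenes, 19 in all (IDI1, FDPS, CYP51A1, HSD17B7 and SCD). Another protein-coding gene overlaps 7 members (ACAT2, MVK, IDI1, SREBF1, ACACA, FADS1 and FADS2). Reads shared with these copies or overlapping genes make the levels of these members uncertain.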

How the data were processed

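RNA sequencing of 3 spheroid samples of C28/I2 was analysed, with groups and replicate numbers taken from the labels. Per the labels' protocols, RNA came from Trizol lysates and the library kit was the sequencing company's own. Named in the submitters' processing notes are Bowtie2 2.2.5, RSEM 1.2.12, DESeq2 1.4.5 and GRCh38.p13, without the step each served. The authors deposited FPKM values per library, and the log2 fold change, p-value and adjusted p-value of their DESeq2 comparison, per the file headers. Positive values mean a higher level in spheroids: of 358 tested genes at 0 in the spheroid libraries, 356 had a value below 0 and 2 above. A further 3 columns of single libraries match no listed sample and were not used, so the comparison was not recomputed and no standard error of a fold change is given. Depth is unknown, so no interval or floor is given. Median-ratio scale factors were 1.00, 0.995 and 1.01, and FPKM were used as deposited.

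All 32 members and the genes of the other pathway list past the threshold are named, except 1 that is not reported here, with the rest as counts. Members and lists were chosen with earlier results of these data known. Deviations use a pseudocount of 1 on the log2(FPKM + 1) scale. Motifs were searched in RefSeq promoter windows. Alternatives were other p and fold thresholds, a level filter, centring, scaling, another pseudocount and leaving out each replicate. The calling rule, the scale factors and the motif search were tested on simulated data, and the other summaries were not. Computation ran in Python 3.11.15 with pandas 2.3.3, SciPy 1.17.1, NumPy 2.4.6 and, for figures, matplotlib 3.10.9.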

Additional observations from a re-analysis of the deposited data

How the results depend on the processing

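No result reversed its direction under the alternatives run, except that the ratio of sterol to fatty acid levels, 1.32 by sums, was 0.83 by geometric means. With a minimum log2 fold change of 2, 6 sterol enzymes, 0 fatty acid enzymes, 0 regulators and 2 other pathway genes were lower in the authors' DESeq2 comparison. The lowest fatty acid enzyme lay at -1.83 and the lowest regulator at -1.18, so their count was 0 whatever the p threshold. Of all genes tested, 4.49% lay at -2 or below, whatever their p. With no minimum fold, 16 sterol enzymes, 8 fatty acid enzymes, 3 regulators and 14 other pathway genes were lower and 11 other pathway genes were higher, against 24.5% lower and 26% higher over all genes. Centring on the median of all genes gave 2 regulators lower, INSIG1 joining SREBF2, and medians of -1.87 for sterol enzymes, -1.14 for fatty acid enzymes, -0.48 for regulators and -0.35 for other pathway genes. Among genes at 1 FPKM or more, the other pathway median was -0.16. With means for medians, the branches differed by -0.67. The deviation of replicate 1 was 0.155 for sterol and 0.198 for fatty acid enzymes with a pseudocount of 0.1, and 0.133 for sterol enzymes after median-ratio scaling. An adjusted p under 0.01, run for the lower counts of sterol enzymes, fatty acid enzymes, regulators and other pathway genes, changed none of these; TM7SF2, HAPLN1 and FABP4 have an adjusted p between 0.01 and 0.05. Leaving out each replicate gave branch ratios from 1.27 to 1.36 and moved no member's level by more than 16.4%. No paired analysis was possible because the samples form 1 group. Outliers could not be tested in a group of 3, and unknown depth limits all levels.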

Other observations

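Among the families of fatty acid enzymes, the ELOVL elongases had members called in both directions. Of the 7 ELOVL elongases, 2 were lower in spheroids (ELOVL5 and ELOVL6), 2 were higher (ELOVL3 and ELOVL7) and 3 did not pass. Of the 4 ACSL ligases 0 were lower and 2 higher, and of the 3 HACD dehydratases 2 were lower and 0 higher. Over all genes tested 9.34% were lower and 11.5% higher, and counts in families this small are a description only. The most abundant elongase, ELOVL1, had 125.0 ± 3.23 FPKM in spheroids (SD, n = 3) and, in the authors' deposited table, a log2 fold change of -0.37, short of the fold minimum. Of the 5 desaturases, 2 were lower, 0 were higher and 3 did not pass in the authors' DESeq2 comparison: FADS3, at 64.1 ± 1.59 FPKM (SD, n = 3), was at -0.76 on the log2 scale by the authors' deposited table. ACACB, the relative of ACACA, had 1.76 ± 0.154 FPKM (SD, n = 3) and a log2 fold change of -0.22 (adjusted p 0.254 in the authors' deposited DESeq2 comparison). Whether the family members differ from each other was not tested.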
